A study of Saccharomyces cerevisiae with 15 samples.

Results

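The 10 genes described here encode cell wall mannoproteins of Saccharomyces cerevisiae and were followed across yeast cells that carried plasmids for human IRAK kinases: TIP1 (YBR067C), TIR1 (YER011W), TIR2 (YOR010C), TIR3 (YIL011W), TIR4 (YOR009W), DAN1 (YJR150C), CWP1 (YKL096W), CWP2 (YKL096W-A), SPI1 (YER150W) and SED1 (YDR077W). They were chosen by name as genes whose products are attached to the wall through a glycosylphosphatidylinositol (GPI) remnant, and make up 10 of the 5449 genes measured. Each of the 10 had exactly 1 probe set on the array, so no choice between probe sets entered their values. In R64, the RefSeq assembly that supplied the systematic names, CWP1 and CWP2 are neighbouring genes, and so are TIR2 and TIR4.

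All cultures were of strain YPH499, a laboratory haploid, and all carried the plasmid pEG(KG), whose GAL1 promoter is switched on by galactose. The plasmid encoded IRAK4, the catalytically inactive form IRAK4(KD), IRAK1 or IRAK2, or was empty in the group called Control. Every group, Control included, spent 18 h at 30 °C in raffinose (SR) medium, was diluted to an optical density of 0.3 in galactose (SG) medium and was harvested after 6 h. There were 3 biological replicates of each of the 5 groups, hence 15 arrays. IRAK kinases act in human Toll-like receptor signalling. Human IRAK transcripts were not among the probe sets used here, so the amount of kinase in each culture is not known from these data. IRAK4(KD) is the one inactive form among the groups, and IRAK1 and IRAK2 have no such counterpart here.

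The outer layer of the yeast wall consists of mannoproteins, proteins loaded with mannose chains. Many of them are made with a GPI anchor in the secretory pathway, carried to the plasma membrane and then transferred to beta-1,6-glucan of the wall. Which of them a cell makes is known to change with temperature, oxygen, growth phase and stress: the TIP1, TIR and DAN genes respond to cold and to low oxygen, while SPI1 and SED1 are known for stress and stationary phase.

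SPI1 was 5.12-fold higher in IRAK4 cells, 3.22-fold higher in IRAK4(KD) cells and 5.03-fold higher in IRAK1 cells than in Control cells. TIP1 was 5.04-fold lower in IRAK4 cells than in Control cells and 1.75-fold higher in IRAK1 cells. TIR3 was 5.97-fold higher in IRAK1 cells than in Control cells, where its values lay at the low end of the scale. CWP1 was lower in IRAK4, IRAK1 and IRAK2 cells than in Control cells, and its neighbour CWP2 was higher in IRAK4 and IRAK1 cells.

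All values below are log2 probe set values, in which 1 unit is a 2-fold difference in fluorescence, and differences are log2 differences with their standard error. A gene was called when limma gave an adjusted p under 0.05 over all 5449 genes. Values of different genes come from different probes, so levels are compared only between groups for the same gene. Bulk RNA does not tell a change in all cells from a change in the share of cells that express a gene.

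Array medians lay between 8.72 and 8.87, and replicate arrays correlated over all genes at 0.993 or above, except for IRAK1 replicate 1, which correlated at 0.968 with each of the other 2 IRAK1 arrays. On that array 234 genes (4.29%) lay more than 1 unit from the mean of the other 2, among the mannoprotein genes TIR3 alone. Results that rest on the IRAK1 arrays are therefore given with and without it where it matters. As a check of the strain, which is of mating type a, the a-specific genes STE2 and MFA1 had values of 8.08 to 9.99 and 8.53 to 9.88. MFA2 had 8.76 to 10.23, AGA2 8.52 to 9.45 and BAR1 5.94 to 8.16. The alpha-specific genes STE3, MF(ALPHA)1 and MF(ALPHA)2 had 5.40 to 6.57, 2.62 to 4.25 and 4.59 to 5.39. SAG1, the alpha-agglutinin gene, had 7.64 to 8.77, and no detection call was used to say whether such a value is above background. BAR1 thus overlapped STE3 and SAG1, and the check is rough because it sets different probes side by side.

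**Figure D1:**
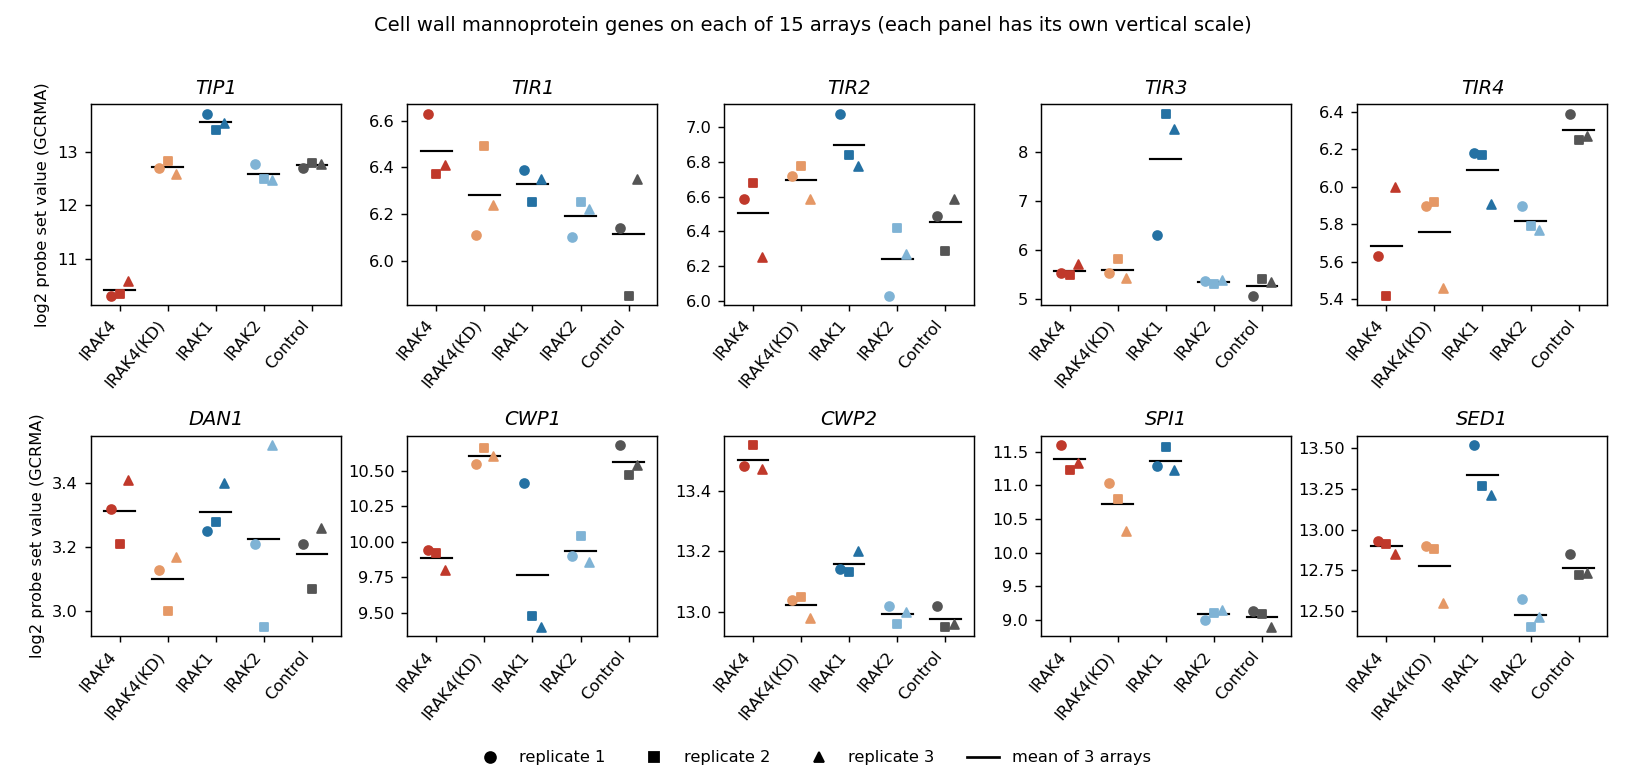
The log2 probe set value of each of the 10 mannoprotein genes on each of the 15 arrays, by group, with a line at the mean of 3 arrays and a marker for each replicate number. SPI1 lies between 10.32 and 11.60 in the IRAK4, IRAK4(KD) and IRAK1 arrays and between 8.89 and 9.15 in the IRAK2 and Control arrays. TIP1 is lowest in IRAK4 and highest in IRAK1, and the IRAK1 replicate 1 array lies apart for TIR3 and CWP1.

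TIP1 encodes a major wall mannoprotein first found for its induction by temperature shock. Its values were 10.31, 10.34 and 10.58 in IRAK4 cells, 12.70, 12.83 and 12.59 in IRAK4(KD) cells and 13.71, 13.41 and 13.53 in IRAK1 cells. They were 12.77, 12.49 and 12.46 in IRAK2 cells, against 12.69, 12.79 and 12.76 in Control cells. The IRAK4 arrays lay below every other array and the IRAK1 arrays above every other array, while the IRAK4(KD) and IRAK2 arrays overlapped the Control arrays. TIP1 fell by 2.33 ± 0.11 in IRAK4 cells relative to Control (adjusted p = 2.6e-09), which placed it at rank 10 from the lowest of all 5449 differences. It was 0.80 ± 0.11 higher in IRAK1 cells (adjusted p = 2.58e-05). The difference was -0.04 in IRAK4(KD) cells, with a 95% confidence interval of -0.27 to 0.19, and -0.17 in IRAK2 cells, with an interval of -0.41 to 0.06; neither was called.

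Against the inactive protein the TIP1 difference of the active kinase was nearly as large. TIP1 fell by 2.29 ± 0.11 in IRAK4 cells relative to IRAK4(KD) cells (adjusted p = 3.57e-09), rank 5 from the lowest of all genes in that comparison. In IRAK1 cells TIP1 was 3.14 ± 0.11, or 8.80-fold, higher than in IRAK4 cells (adjusted p = 8.67e-11), the widest difference of the 10 genes with all 15 arrays. Without IRAK1 replicate 1 it was 3.06, below the TIR3 difference of IRAK1 from Control. In the order of the group means, the steps of IRAK1 above Control and of IRAK2 above IRAK4 were called. The steps from Control to IRAK4(KD) and from IRAK4(KD) to IRAK2, which stood between these, were not called.

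TIR3, a Tip1-related gene needed for growth without oxygen, was high in IRAK1 cells. Its values were 5.53, 5.49 and 5.71 in IRAK4 cells, 5.54, 5.81 and 5.43 in IRAK4(KD) cells and 6.31, 8.78 and 8.46 in IRAK1 cells. They were 5.37, 5.30 and 5.39 in IRAK2 cells, against 5.07, 5.40 and 5.34 in Control cells. All 3 IRAK1 arrays lay above all other arrays, but replicate 1 differed by -2.31 from the mean of the other 2. The difference of IRAK1 from Control was 2.58 ± 0.42 (adjusted p = 0.00014), rank 36 from the highest, and without IRAK1 replicate 1 it was 3.35 ± 0.13 (adjusted p = 6.02e-11).

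All groups share 1 estimate of the spread, so that array widened the standard error of TIR3 in every comparison. The pooled within-group SD of TIR3 was 0.61 over the 5 groups and 0.15 over the 4 groups other than IRAK1. With all arrays, the differences of 0.30 in IRAK4 cells and 0.32 in IRAK4(KD) cells from Control were not called (adjusted p = 0.584 and 0.624). Without IRAK1 replicate 1, both were called, at adjusted p = 0.0353 and 0.0427, and in both groups the arrays did not overlap those of Control. TIR3 values were 5.07 to 5.40 in Control cells and 5.30 to 5.39 in IRAK2 cells. These lay at the low end of the scale, where the fifth percentiles of the arrays were 4.97 to 5.45. No detection call was used for TIR3. In IRAK1 cells TIR3 was 2.28 ± 0.42 higher than in IRAK4 cells (adjusted p = 0.000561). In the order of its levels, the step of IRAK1 above IRAK4(KD) was called, and the steps between the other 4 groups were not.

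TIR4, another Tip1-related gene needed for anaerobic growth, was called lower than Control in IRAK4 and IRAK4(KD) cells. Its values were 5.63, 5.42 and 6.00 in IRAK4 cells, 5.90, 5.92 and 5.46 in IRAK4(KD) cells and 6.18, 6.17 and 5.91 in IRAK1 cells. They were 5.90, 5.79 and 5.77 in IRAK2 cells, against 6.39, 6.25 and 6.27 in Control cells. All 12 kinase arrays lay below the Control arrays. The difference from Control was called for IRAK4 (-0.62 ± 0.15, adjusted p = 0.00334) and for IRAK4(KD) (-0.55 ± 0.15, adjusted p = 0.0214). It was not called for IRAK1 (-0.22, adjusted p = 0.211) or IRAK2 (-0.48, adjusted p = 0.0513). The IRAK2 difference was called without IRAK1 replicate 1 (adjusted p = 0.0253), after median centring (0.0261) and after quantile normalization (0.0147). It was also called with the filter on low values (0.0487), with array weights (0.000279) and with the 6 arrays compared alone (0.00258). The IRAK1 difference was called under quantile normalization (-0.44, adjusted p = 0.0066). The IRAK4(KD) call was lost when Control replicate 1, 2 or 3 or IRAK4(KD) replicate 3 was left out, with differences between -0.57 and -0.39.

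TIR2, which lies beside TIR4 and is known for induction by cold shock, was called against Control in IRAK1 cells. Its values were 7.08, 6.84 and 6.78 in IRAK1 cells, against 6.49, 6.29 and 6.59 in Control cells, a difference of 0.45 ± 0.13 (adjusted p = 0.00946). In the other kinase groups it ranged from 6.03 to 6.78 and was not called, though with array weights it was called higher in IRAK4 (0.24) and IRAK4(KD) cells (0.37). The IRAK1 call was lost under quantile normalization, which gave 0.29. With all arrays at equal weight, the neighbouring TIR2 and TIR4 had no comparison with Control in which both were called. With array weights both were called in IRAK4 and IRAK4(KD) cells, TIR2 higher and TIR4 lower.

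TIR1, a cold-shock mannoprotein gene, covered 0.78 units over the 15 arrays, with values of 6.63, 6.37 and 6.41 in IRAK4 cells, against 6.14, 5.85 and 6.35 in Control cells. The difference of 0.36 ± 0.13 was called (adjusted p = 0.0323). It was not called after median centring of the arrays (0.29) or quantile normalization (0.21), nor without Control replicate 1 or 2 or IRAK4 replicate 1 or 3 (0.225 to 0.385). Differences of TIR1 in the other kinase groups from Control were 0.08 to 0.22, and none of these was called, though without Control replicate 3 the IRAK1 difference was (0.34, adjusted p = 0.0382). No step between neighbouring groups in the order of TIR1, TIR2 or TIR4 levels was called.

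DAN1, the gene known for strong expression without oxygen and repression in air, was called in none of the 6 comparisons. Its values ran from 2.95 to 3.52 over the 15 arrays, below the fifth percentile of every array, which lay between 4.97 and 5.45. No detection call was used for it, and its differences from Control lay between -0.08 and 0.14.

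CWP1 encodes a wall protein known to be deposited at the birth scar. Its values were 9.94, 9.92 and 9.80 in IRAK4 cells, 10.55, 10.66 and 10.60 in IRAK4(KD) cells and 10.41, 9.48 and 9.40 in IRAK1 cells. They were 9.90, 10.04 and 9.86 in IRAK2 cells, against 10.68, 10.47 and 10.54 in Control cells. The IRAK4, IRAK1 and IRAK2 arrays all lay below the Control arrays, though IRAK1 replicate 1 only narrowly, and the IRAK4(KD) arrays overlapped them. CWP1 fell by 0.68 ± 0.19 in IRAK4 cells (adjusted p = 0.00967), by 0.80 ± 0.19 in IRAK1 cells (adjusted p = 0.00226) and by 0.63 ± 0.19 in IRAK2 cells (adjusted p = 0.0491). The difference in IRAK4(KD) cells was 0.04, with an interval of -0.37 to 0.44.

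As for TIR3, IRAK1 replicate 1 widened the error of CWP1. The pooled within-group SD was 0.26 over 5 groups and 0.09 over the 4 groups other than IRAK1. Without that array CWP1 fell by 1.12 ± 0.08 in IRAK1 cells relative to Control (adjusted p = 4.22e-08), and the IRAK2 difference had an adjusted p of 0.000125. The IRAK2 call was lost when any 1 of the 6 IRAK2 and Control arrays was left out, with differences of -0.69 to -0.58. CWP1 fell by 0.71 ± 0.19 in IRAK4 cells relative to IRAK4(KD) cells (adjusted p = 0.00896). In the order of CWP1 levels, the step of Control above IRAK2 was called with all 15 arrays, and that of IRAK4 above IRAK1 was not (IRAK1 minus IRAK4 -0.12, adjusted p = 0.62). Without IRAK1 replicate 1 the difference of IRAK1 from IRAK4 was -0.45 ± 0.08 and was called (adjusted p = 0.000461), and it was also called with array weights (-0.43).

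CWP2 encodes an abundant wall protein known for its part in wall stability. Its values were 13.48, 13.55 and 13.47 in IRAK4 cells and 13.04, 13.05 and 12.98 in IRAK4(KD) cells. They were 13.14, 13.13 and 13.20 in IRAK1 cells and 13.02, 12.96 and 13.00 in IRAK2 cells, against 13.02, 12.95 and 12.96 in Control cells. The IRAK4 arrays lay above all others and the IRAK1 arrays above the remaining 3 groups. CWP2 was 0.52 ± 0.06 higher in IRAK4 cells than in Control cells (adjusted p = 1.93e-05) and 0.48 ± 0.06 higher than in IRAK4(KD) cells (adjusted p = 5.49e-05). In IRAK1 cells it fell by 0.34 ± 0.06 relative to IRAK4 cells (adjusted p = 0.000511).

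The smaller CWP2 difference of IRAK1 from Control, 0.18 ± 0.06 (adjusted p = 0.0272), was lost with median centring (0.14) and in a fit of the 6 arrays compared (adjusted p = 0.134, and 0.16 with the replicate block). It was also lost without Control replicate 2 or 3 or IRAK1 replicate 3, with differences of 0.16 to 0.17. CWP2 values lay high on the scale, where the array maxima were 13.92 to 14.21. In the order of its levels the step of IRAK4 above IRAK1 was called, and the other steps were not. The neighbours CWP1 and CWP2 were both called in IRAK4 and in IRAK1 cells, with opposite signs.

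**Figure D2:**
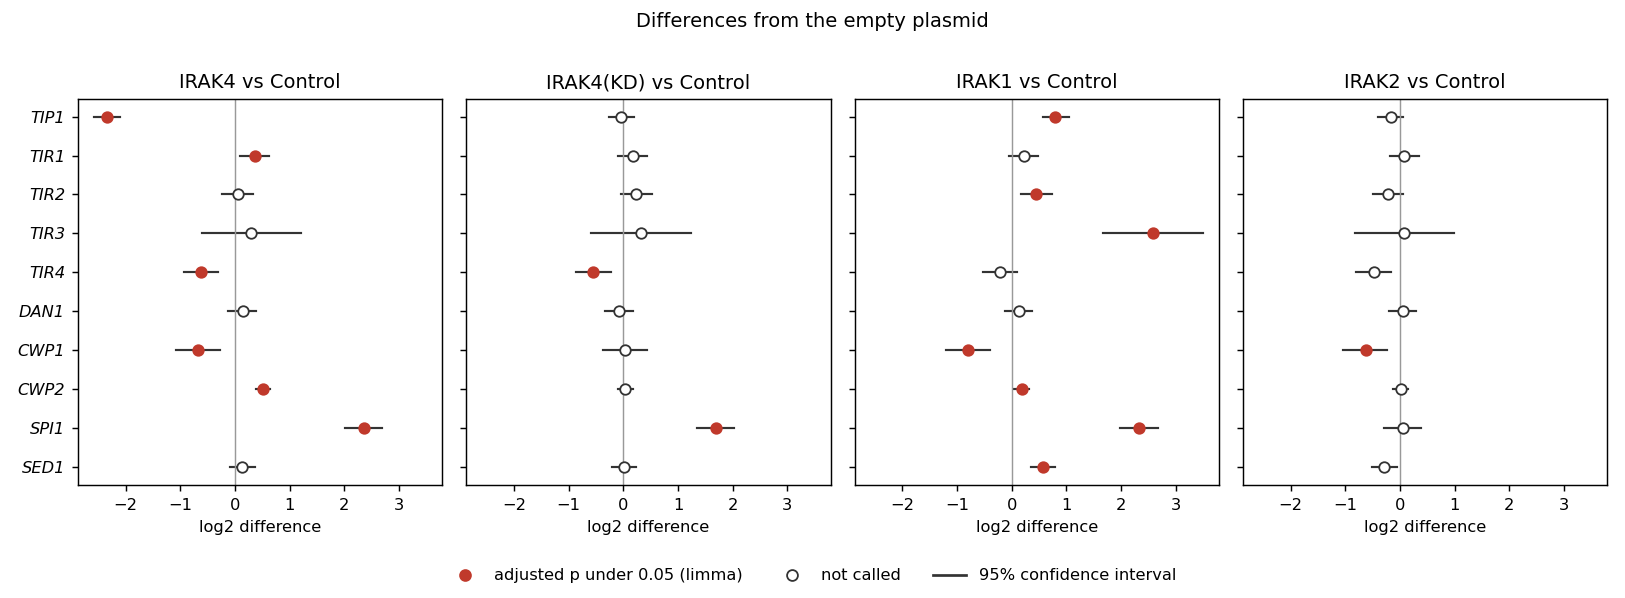
The log2 difference of IRAK4, IRAK4(KD), IRAK1 and IRAK2 cells from Control cells for the 10 mannoprotein genes, with 95% confidence intervals and filled points where adjusted p was under 0.05. SPI1 is 2.36, 1.69, 2.33 and 0.05 in these comparisons, and TIP1 is -2.33, -0.04, 0.80 and -0.17.

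SPI1 encodes a wall protein related to Sed1 and known for induction by weak acids and in stationary phase. Its values were 11.60, 11.23 and 11.34 in IRAK4 cells, 11.04, 10.80 and 10.32 in IRAK4(KD) cells and 11.29, 11.57 and 11.23 in IRAK1 cells. They were 8.99, 9.10 and 9.15 in IRAK2 cells, against 9.13, 9.08 and 8.89 in Control cells. The IRAK4, IRAK4(KD) and IRAK1 arrays all lay more than 1 unit above the IRAK2 and Control arrays, which overlapped each other. The difference from Control was 2.36 ± 0.16 for IRAK4 (adjusted p = 6.76e-08), 1.69 ± 0.16 for IRAK4(KD) (adjusted p = 1.14e-05) and 2.33 ± 0.16 for IRAK1 (adjusted p = 3.43e-08). These placed SPI1 at ranks 21, 4 and 56 from the highest of all genes.

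For IRAK2 the SPI1 difference from Control was 0.05, with an interval of -0.29 to 0.39. IRAK4 and IRAK4(KD) cells also differed from each other, by 0.67 ± 0.16 (adjusted p = 0.0045). IRAK1 and IRAK4 cells differed by -0.03, with an interval of -0.36 to 0.31. In the order of SPI1 levels, the steps of IRAK1 above IRAK4(KD), 0.64, and of IRAK4(KD) above IRAK2, 1.64, were called, and the steps at both ends were not.

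SED1 encodes a major structural mannoprotein of stationary phase and stressed cells. Its values were 12.93, 12.91 and 12.85 in IRAK4 cells, 12.90, 12.88 and 12.55 in IRAK4(KD) cells and 13.52, 13.27 and 13.21 in IRAK1 cells. They were 12.57, 12.40 and 12.46 in IRAK2 cells, against 12.85, 12.72 and 12.73 in Control cells. The IRAK1 arrays lay above all others and the IRAK2 arrays below those of Control. The difference from Control was called for IRAK1 alone, 0.57 ± 0.10 (adjusted p = 0.000347). For IRAK2 it was -0.29 ± 0.10 (adjusted p = 0.0986, and 0.034 without IRAK1 replicate 1). In IRAK1 cells SED1 was also 0.44 ± 0.10 higher than in IRAK4 cells (adjusted p = 0.00358), the one step in the order of SED1 levels that was beyond the spread.

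**Figure D3:**
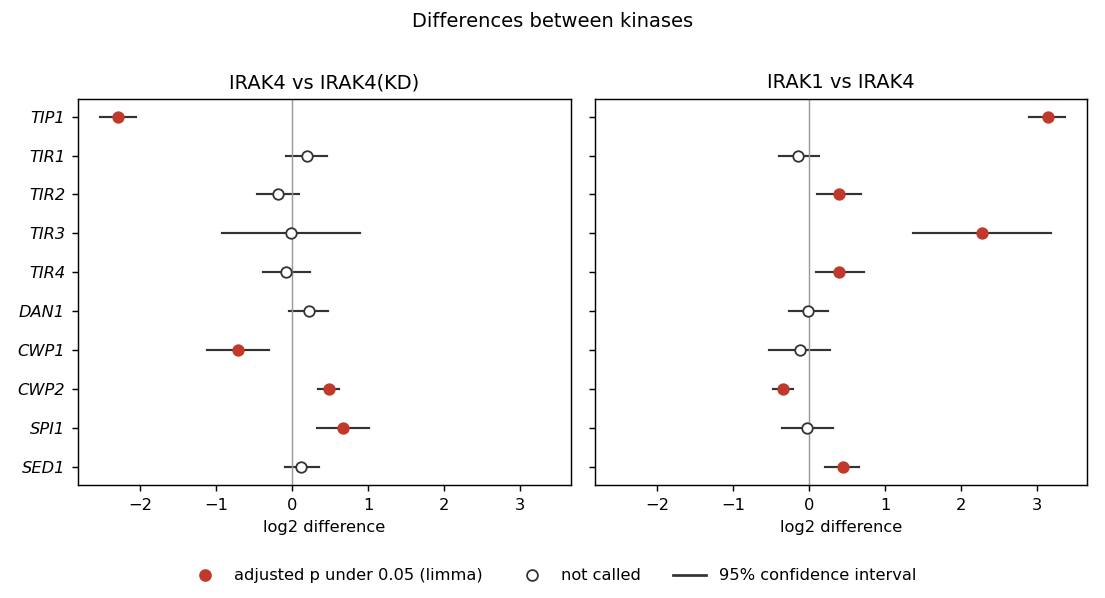
The log2 difference of IRAK4 from IRAK4(KD) cells and of IRAK1 from IRAK4 cells for the 10 mannoprotein genes, with 95% confidence intervals and filled points where adjusted p was under 0.05. TIP1 lies at -2.29 in the comparison with the inactive protein and at 3.14 in the comparison of IRAK1 with IRAK4.

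Counted over the 10 genes, calls were set beside the share of all 5449 genes called in the same comparison. In IRAK4 against Control, 3 were higher and 3 lower, 6 of 10, beside 44.6% of all genes called in either direction, 28.2% higher and 16.4% lower. In IRAK4(KD) against Control, SPI1 was higher and TIR4 lower, beside 17.7% of all genes, 11.7% higher and 6% lower. In IRAK1 against Control, 6 were higher and CWP1 was lower, beside 58.7% of all genes called, 30.6% higher and 28.2% lower.

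In IRAK2 against Control, CWP1 was the single gene of the 10 called, beside 9.19% of all genes, 5.82% higher and 3.38% lower. There 0 were called higher, also at an unadjusted p under 0.05, where 3 were lower. With array weights in limma 1 was higher and 4 were lower, in a fit that called 2591 of all 5449 genes, against 501 in the reported fit. In IRAK4 against IRAK4(KD), CWP2 and SPI1 were higher and TIP1 and CWP1 lower, beside 34.9% of all genes, 19.7% higher and 15.3% lower. In IRAK1 against IRAK4, TIP1, TIR2, TIR3, TIR4 and SED1 were higher and CWP2 lower, beside 46.3% of all genes, 18.3% higher and 28% lower. The TIR2 and TIR4 calls in that comparison were lost without IRAK1 replicate 1, without some other single arrays, with the 6 arrays alone and under quantile normalization.

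The median difference of the 10 genes from Control was 0.14 in IRAK4 cells (0.08 over all genes), 0.04 in IRAK4(KD) cells (0.07), 0.33 in IRAK1 cells (0.02) and -0.08 in IRAK2 cells (0.01). The 4 comparisons with Control share the same 3 Control arrays, so their values are not independent of each other. Over these 4, SPI1 was called in 3, higher each time, and CWP1 in 3, lower each time. TIR4 was called lower in 2 and CWP2 higher in 2. TIP1 was called in both directions.

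**Figure D4:**
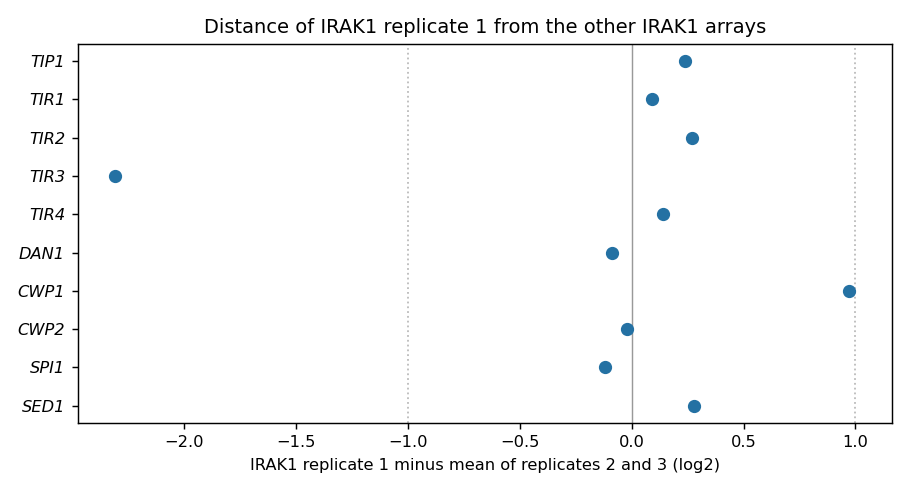
The distance of IRAK1 replicate 1 from the mean of IRAK1 replicates 2 and 3 for each mannoprotein gene, in log2 units, with dotted lines at 1 and -1. TIR3 lies at -2.31 and CWP1 at 0.97, and the other 8 genes lie between -0.12 and 0.28.

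The gene most like each mannoprotein gene, by Pearson correlation over the 15 arrays among the 5439 other genes, is given as a description. The arrays fall into 5 groups, so a high correlation says mainly that 2 genes have similar group means. TIP1 was most like MAL32, a maltase gene (0.972). TIR3 was most like DSF1, a mannitol dehydrogenase gene (0.974), and SPI1 most like DOA4, a deubiquitinase gene (0.967). SED1 was most like MAM3 (0.963) and CWP2 most like CUP9, a transcriptional repressor gene (0.956).

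For CWP1 the nearest gene was QDR2, a drug transporter gene (0.918), for TIR4 UGA3, a transcription factor gene (0.894), and for TIR2 GAL80, the repressor gene of the galactose pathway (0.868). The lowest of these correlations were those of TIR1 with IRC8 (0.785, and 0.574 after quantile normalization) and of DAN1 with BUD25 (0.716).

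Genes around the mannoproteins were described by lists that hold the wall proteins outside the 10, the enzymes that make the anchor and the mannose chains, and known regulators. Of 31 other GPI wall or surface protein genes measured, 12 were higher and 3 lower in IRAK4 cells than in Control cells, and 11 were higher and 5 lower in IRAK1 cells. Over all genes 28.2% were higher and 16.4% lower in IRAK4 cells, and 30.6% higher and 28.2% lower in IRAK1 cells. The 12 became 7 without Control replicate 3 or without IRAK4 replicate 3, the 3 became 1 without Control replicate 1, and the 5 became 9 without IRAK1 replicate 1. HPF1, a wall mannoprotein gene, was 2.07 ± 0.27 higher in IRAK4 cells (adjusted p = 4.07e-05) and 1.58 ± 0.27 higher in IRAK1 cells (adjusted p = 0.000209). TOS6 was 1.18 ± 0.10 higher in IRAK4 cells (adjusted p = 9.32e-07) and fell by 1.51 ± 0.10 in IRAK1 cells (adjusted p = 4.06e-08), where TIP1 had the opposite signs. UTR2, a chitin transglycosylase gene, fell by 1.83 ± 0.12 in IRAK1 cells (adjusted p = 3.4e-08). FIT3, which encodes a wall mannoprotein that helps to hold iron siderophores, fell by 2.35 ± 0.32 in IRAK4 cells (adjusted p = 6.01e-05). It also fell by 1.35 ± 0.32 in IRAK4(KD) cells (adjusted p = 0.0132). Its means were 10.80 in IRAK1 cells and 10.89 in IRAK2 cells, against 11.83 in Control cells.

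The PIR genes encode wall proteins that are linked without a GPI anchor. Of 5, 3 were higher and 1 lower in IRAK4 cells, and 4 were higher and 1 lower in IRAK1 cells, beside 44.6% and 58.7% of all genes called in either direction in these comparisons. PIR3 was 1.33 ± 0.23 higher in IRAK4 cells and 2.11 ± 0.23 higher in IRAK1 cells (adjusted p = 0.000385 and 3.5e-06). PIR5 fell by 1.02 ± 0.15 in IRAK4 cells and by 1.49 ± 0.15 in IRAK4(KD) cells, and was 1.49 ± 0.15 higher in IRAK1 cells (adjusted p = 0.000126, 2.44e-05 and 2.05e-06). CIS3 was 0.52 ± 0.10 higher in IRAK4 cells and fell by 0.53 ± 0.10 in IRAK1 cells (adjusted p = 0.000953 and 0.000523). PIR5, like SPI1 and TIR4, was thus called in cells with the inactive protein.

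Seripauperin (PAU) genes are relatives of the TIP1, TIR and DAN genes that are known for induction by low oxygen and in fermentation. They are near-identical copies, so the reading of one may include others. Of 13 measured, 4 were higher and 5 lower in IRAK1 cells than in Control cells, among the higher PAU21 (1.72 ± 0.14, adjusted p = 2.26e-07) and PAU3 (1.39 ± 0.10, adjusted p = 5.99e-08), and PAU14 fell by 1.09 ± 0.21 (adjusted p = 0.000457). Over all genes 30.6% were higher and 28.2% lower in that comparison. In IRAK4 cells 3 were higher and 3 lower, beside 28.2% and 16.4% of all genes. The first count was 0 or 1 without Control replicate 1 or IRAK4 replicate 1 or 2, and the second 0 or 1 without any 1 Control array or without IRAK4 replicate 3.

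Of 31 genes for mannosylation and GDP-mannose supply, 7 were higher and 1 lower in IRAK4 cells, and 3 were higher (5 without Control replicate 1) and 13 lower in IRAK1 cells. The shares of all genes were 28.2% higher and 16.4% lower in IRAK4 cells, and 30.6% higher and 28.2% lower in IRAK1 cells. The 1 lower gene in IRAK4 cells was called neither without IRAK4 replicate 1, 2 or 3 nor without Control replicate 2 or 3, and without IRAK1 replicate 1 there were 2. OCH1, which starts the outer mannose chain, was 1.48 ± 0.09 higher in IRAK4 cells (adjusted p = 4.57e-08). OCH1 values in IRAK1 cells, 8.91 to 9.25, also lay above those in Control cells, 8.49 to 8.71. In IRAK2 cells OCH1 fell by 0.35 ± 0.09 (adjusted p = 0.0335). In IRAK1 cells SEC53, the phosphomannomutase gene, fell by 0.76 ± 0.10 (adjusted p = 2.64e-05) and PMT4, an O-mannosyltransferase gene, fell by 0.65 ± 0.09 (adjusted p = 2.43e-05). Of 29 genes for the GPI anchor, 5 were higher and 3 lower in IRAK4 cells, and 6 were higher and 6 lower in IRAK1 cells, beside the same shares of all genes. Leaving out single arrays (Control 1, 2 or 3, IRAK4 3 or IRAK1 1) moved these 4 counts to between 2 and 8. In IRAK4(KD) cells 8 were higher, beside 11.7% of all genes, and 0 were lower, also at an unadjusted p under 0.05, beside 6% of all genes. With array weights 19 were higher and 1 lower, in a fit that called 2683 of all 5449 genes, against 967 in the reported fit. The 8 became 1 without Control replicate 2 or IRAK4(KD) replicate 2, 2 without Control replicate 3 or IRAK4(KD) replicate 1, 4 without IRAK4(KD) replicate 3 and 14 without IRAK1 replicate 1. Leaving out single arrays moved the count of all genes called in IRAK4(KD) cells to between 325 and 1857. GPI2, which encodes a subunit of the first enzyme of the anchor pathway, was 1.31 ± 0.15 higher in IRAK4 cells (adjusted p = 8.82e-06). It was also 0.62 ± 0.15 higher in IRAK4(KD) cells and 0.51 ± 0.15 higher in IRAK1 cells (adjusted p = 0.0116 and 0.00785).

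**Figure D5:**
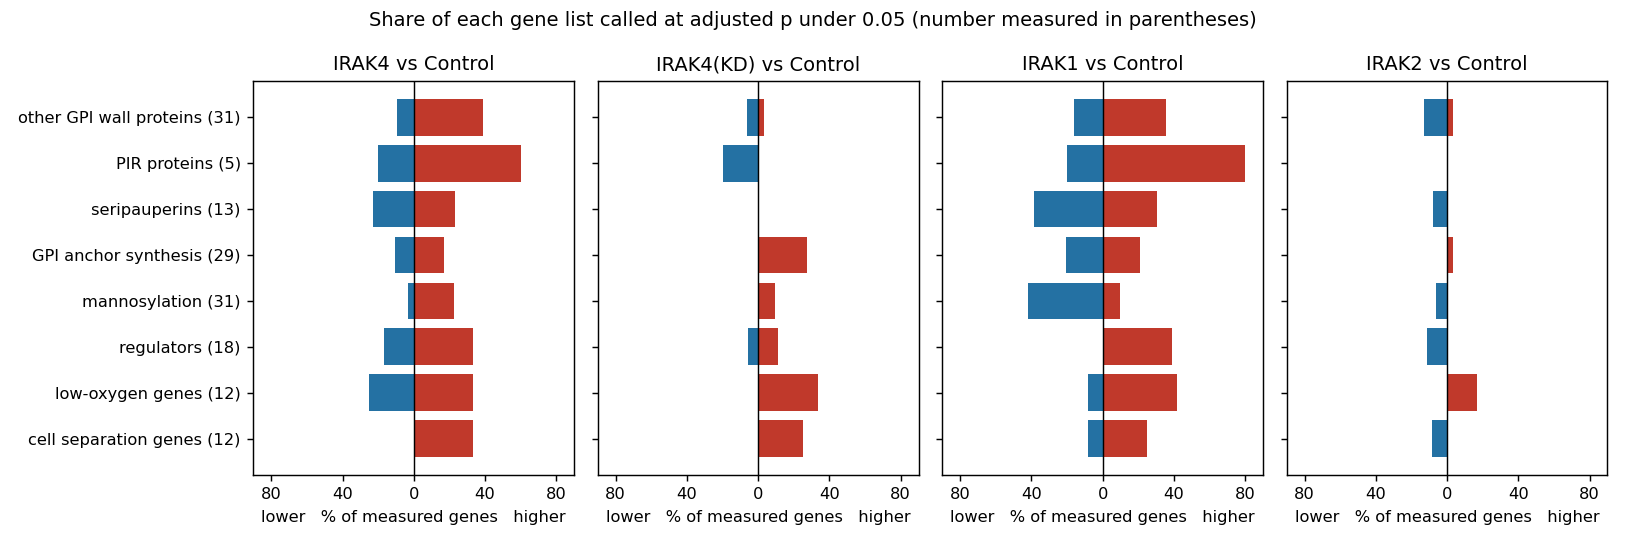
The percentage of the measured genes of each list called higher (right of 0) or lower (left of 0) at adjusted p under 0.05 in IRAK4, IRAK4(KD), IRAK1 and IRAK2 cells against Control cells. In IRAK1 cells 13 of 31 mannosylation genes lie to the left and 3 to the right, and of 18 regulators 7 lie to the right and 0 to the left. Over all genes 28.2% were lower and 30.6% higher in that comparison.

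Among 18 regulators, 6 were higher and 3 lower in IRAK4 cells (1 without Control replicate 2 or 3 or IRAK4 replicate 1 or 2), and 7 were higher in IRAK1 cells, where 0 were lower, also at an unadjusted p under 0.05, and 2 with array weights or without IRAK1 replicate 1. Over all genes 28.2% were higher and 16.4% lower in IRAK4 cells, and 30.6% higher and 28.2% lower in IRAK1 cells. UPC2 and ECM22 encode activators of sterol genes, and Upc2 is also known to activate DAN and TIR genes. In IRAK1 cells UPC2 was 0.38 ± 0.09 higher (adjusted p = 0.00264) and ECM22 1.04 ± 0.19 higher (adjusted p = 0.000289). SUT1, a sterol uptake regulator gene, was 0.54 ± 0.11 higher there (adjusted p = 0.000709). In IRAK4 cells UPC2 fell by 0.24 ± 0.09 and SUT1 by 0.32 ± 0.11 (adjusted p = 0.0462 and 0.0271). The UPC2 call was lost without any 1 of IRAK4 replicates 1, 2 and 3 or Control replicates 2 and 3, with trend and robust settings and with the 6 arrays compared alone, and the SUT1 call without IRAK4 replicate 1 or 2 or Control replicate 2 or 3. ROX1, the repressor gene of hypoxic genes, was 0.75 ± 0.18 higher in IRAK4 cells (adjusted p = 0.00423) and differed from Control by -0.18 in IRAK1 cells (adjusted p = 0.409).

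HAP1, a heme-responsive regulator gene, was higher in IRAK4, IRAK4(KD) and IRAK1 cells, by 0.33, 0.35 and 0.74 (adjusted p = 0.00387, 0.0094 and 2.93e-06). MSN4, which encodes a general stress activator, was 0.71 ± 0.08 higher in IRAK4 cells and 0.83 ± 0.08 higher in IRAK1 cells (adjusted p = 1.41e-05 and 1.47e-06), and 0.11 from Control in IRAK4(KD) cells (adjusted p = 0.381). HAA1 encodes the weak-acid regulator known to act on SPI1. HAA1 fell by 0.34 ± 0.09 in IRAK4 cells and by 0.55 ± 0.09 in IRAK4(KD) cells (adjusted p = 0.0101 and 0.00152), 2 groups in which SPI1 was higher. It differed by 0.02 in IRAK1 cells (adjusted p = 0.898), where SPI1 was also higher, and fell by 0.46 ± 0.09 in IRAK2 cells (adjusted p = 0.00912), where SPI1 was not called. That HAA1 call was lost without IRAK2 replicate 3. These are transcript levels of the regulators, and none of their activities was measured.

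Of 12 low-oxygen genes, 4 were higher and 3 lower in IRAK4 cells, and 5 were higher (8 without IRAK1 replicate 1) and 1 lower (2 without that array or Control replicate 1) in IRAK1 cells. All genes had 28.2% higher and 16.4% lower in IRAK4 cells, and 30.6% and 28.2% in IRAK1 cells. COX5B and CYC7, which encode the low-oxygen forms of a cytochrome oxidase subunit and of cytochrome c, were higher in both: COX5B by 1.72 ± 0.13 and 1.32 ± 0.13, and CYC7 by 1.11 ± 0.15 and 1.01 ± 0.15 (adjusted p at most 5.2e-05). CYC7 was also higher in IRAK2 cells (0.83 ± 0.15, adjusted p = 0.00457), and COX5B in IRAK4(KD) cells (0.41 ± 0.13, adjusted p = 0.0371). In IRAK4(KD) cells 4 of the 12 were higher (1 to 8 with single arrays left out), beside 11.7% of all genes. OLE1, the fatty acid desaturase gene, fell by 0.80 ± 0.08 in IRAK1 cells (adjusted p = 1.5e-06). Of 12 genes of cell separation, most of them active in daughter cells, 4 were higher in IRAK4 cells, but 1 or 2 without Control replicate 2 or 3 or IRAK4 replicate 3. DSE4, an endoglucanase gene, was 0.64 ± 0.09 higher there and 0.63 ± 0.09 higher in IRAK4(KD) cells (adjusted p = 4.98e-05 and 0.000307).

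In IRAK4(KD) and IRAK2 cells the counts of other GPI wall genes moved when single arrays were left out. Of the 31 other GPI wall genes, 1 was higher and 2 were lower in IRAK4(KD) cells, beside 11.7% and 6% of all genes. These counts ran from 0 to 7 and from 0 to 4 when single arrays were left out, in fits that called 325 to 1857 of all genes. In IRAK2 cells 1 was higher and 4 were lower, beside 5.82% and 3.38% of all genes. The IRAK2 counts ran from 0 to 1 and from 0 to 11, in fits that called 146 to 1180 of all genes. The highest counts in IRAK4(KD) cells and the 11 lower genes in IRAK2 cells came from the fit without IRAK1 replicate 1.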

How the data were processed

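Cultures were disrupted mechanically, RNA was taken with the RNeasy kit, and biotin-labelled material of 15 cultures went onto Affymetrix yeast arrays, as the labels' protocols state. The authors deposited log2 values made with GCRMA (background correction, normalization and probe summary), per the submitters' processing notes, where no version is named. Scanner files and detection calls were not used, and precision is limited by the number of arrays.

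Of 5716 probe sets, 5498 were paired with 1 gene by the platform annotation and 218 were left out. Symbols were updated for 12 genes from the RefSeq table of R64. For 47 genes with several probe sets the one with the highest mean was kept, which left 5449 genes. A model with 5 group means was fitted to the 15 arrays in R 4.3.3, using lmFit, contrasts.fit and eBayes of limma 3.58.1 at their defaults. Tests were two-sided, adjusted by Benjamini-Hochberg over all genes within a comparison and called under 0.05. Errors after ± are standard errors of contrasts. Figures used Python 3.11.15 and matplotlib 3.10.9. The procedure was tested on simulated data.

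The 10 genes, the context lists and the tests were chosen with earlier results of these data known. Named genes were all 10, up to 4 called genes per list and comparison with the largest difference and no overlap of arrays, any regulator, the most correlated gene of each, and mating type genes. Replicates are biological per the labels, which give no meaning to their numbers. To check for pairing, deviations from the group means were correlated over genes between arrays with the same number: only IRAK1 and Control had all 3 over 0.1 (0.191, 0.104 and 0.347), so their numbers were taken as pairs, of unknown origin. Alternatives were 2 array scalings, a filter at a mean under 5, the mean of probe sets, trend and robust eBayes, array weights, the 6 arrays compared, the replicate block, and each array left out. A fit that joined the replicate block with the 6 IRAK1 and Control arrays was added after seeing the data. Protein and promoter sequences of the 10 genes were not analysed here.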

Additional observations from a re-analysis of the deposited data

How the results depend on the processing

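Over 6 comparisons and 10 genes, 26 of 60 differences were called. Of these 26, 19 stayed called under every alternative run, and 0 reversed. Over all alternatives there were 884 values of these differences, of which 786 kept direction and side of the threshold, 34 lost a call, 23 gained one and 41 changed sign, all of them uncalled in the reported fit. The causes of these changes were not tested, except that leaving out arrays leaves fewer samples. IRAK1 replicate 1 takes part in every spread of the 15-array fit.

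With array weights, 5 mannoprotein genes were higher in IRAK4 than in Control cells, 3 in IRAK4(KD) and 1 in IRAK2 cells, 4 were lower in IRAK2 cells, and 2 were lower in IRAK1 than in IRAK4 cells. The calls gained with array weights were TIR2 and SED1 in IRAK4, TIR1 and TIR2 in IRAK4(KD), TIR1 in IRAK1 and TIP1, TIR1, TIR4 and SED1 in IRAK2 cells against Control, CWP1 in IRAK1 against IRAK4, and TIP1 in IRAK2 against IRAK4(KD) (-0.198, adjusted p = 0.0463). All genes called then numbered 2683 for IRAK4(KD) (967 in the reported fit) and 2591 for IRAK2 (501) against Control, and 2890 for IRAK4 against IRAK4(KD) (1904). With the 6 arrays compared alone, 1728 genes were called for IRAK4(KD) and 1407 for IRAK2 against Control and 1486 for IRAK1 against IRAK4 (2523), 3 mannoprotein genes were lower in IRAK2 cells and 3 higher in IRAK1 than in IRAK4 cells. Quantile normalization gave 2 lower in IRAK1 and 2 in IRAK2 cells against Control, and 3 higher in IRAK1 than in IRAK4 cells. Median centring and the filter on low values each gave 2 lower in IRAK2 cells. Leaving out arrays one at a time gave 325 to 1857 genes for IRAK4(KD) and 146 to 1180 for IRAK2 against Control. For the mannoprotein genes it gave 1 to 2 higher and 0 to 1 lower in IRAK4(KD) cells, 0 to 3 lower in IRAK2 cells, and 3 to 5 higher and 1 to 2 lower in IRAK1 than in IRAK4 cells. Of called genes, 63.3% were higher in IRAK4 and 66.2% in IRAK4(KD) cells, against 52.4% and 55.9% after median centring and 51.0% and 54.7% after quantile normalization.

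Sign changes after median centring were TIR2 in IRAK4 (-0.019), CWP1 (-0.004) and SED1 (-0.029) in IRAK4(KD) and CWP2 in IRAK2 (-0.00041) against Control, and DAN1 (0.033) and SPI1 (0.012) in IRAK1 against IRAK4. After quantile normalization they were TIR2 in IRAK4 (-0.094), CWP1 (-0.035), CWP2 (-0.029) and SED1 (-0.052) in IRAK4(KD), TIR3 (-0.038) and CWP2 (-0.00053) in IRAK2 against Control, DAN1 in IRAK1 against IRAK4 (0.037), and against IRAK4(KD) TIR1 in IRAK1 (-0.117) and CWP2 in IRAK2 (0.029). With array weights they were TIR3 in IRAK2 against Control (-0.014), DAN1 in IRAK1 against IRAK4 (0.013) and TIR4 in IRAK2 against IRAK4(KD) (-0.016).
When arrays were left out one at a time, differences from Control that changed sign ran from -0.034 to 0.179 for TIR2 in IRAK4 cells. In IRAK4(KD) cells they ran from -0.104 to 0.019 for TIP1, -0.009 to 0.094 for CWP1 and -0.049 to 0.127 for SED1. In IRAK2 cells they ran from -0.053 to 0.197 for TIR1, -0.023 to 0.14 for TIR3, -0.097 to 0.187 for DAN1 and -0.02 to 0.098 for SPI1. Against IRAK4(KD), IRAK4 ran from -0.1 to 0.09 for TIR3 and -0.238 to 0.054 for TIR4, IRAK1 from -0.031 to 0.155 for TIR1, and IRAK2 from -0.173 to 0.014 for TIR1 and -0.091 to 0.143 for TIR4. Against IRAK4, IRAK1 ran from -0.058 to 0.043 for DAN1, -0.446 to 0.056 for CWP1 and -0.131 to 0.082 for SPI1, and IRAK2 from -0.011 to 0.082 for CWP1. IRAK2 against IRAK1 ran from -0.227 to 0.057 for DAN1.
The replicate block in the 15-array fit changed no call of the 10 genes in the 6 comparisons. For IRAK1 against Control, the block in that 15-array fit gave 6 higher and 1 lower, as without it. The replicate numbers of these groups were taken as pairs, though the labels give them no meaning. The block in a fit of the 6 IRAK1 and Control arrays lost the CWP2 call (0.176, adjusted p = 0.16) and changed no other call of the 10 genes.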
